A study of Mus musculus with 6 samples.

Results

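The genes described here are the angiogenic, hypoxia and arginine-use transcripts grouped around Vegfa that were measured in peritoneal macrophages from mice with ovarian tumors. The rule that picks them uses symbols and no measured value, namely Vegfa, every other symbol that starts with Vegf or Hif, and the symbols Flt1, Kdr, Arg1, Nos2 and Thbs1, although it was written with earlier results of these data known. This gave 6 of the 754 genes in the table, namely Vegfa, Vegfc, Flt1, Hif1a, Arg1 and Nos2, while Kdr and Thbs1 were not analysed here. Expression was measured with the NanoString nCounter assay, which counts color-coded probes bound to each transcript without amplification, on RNA of F4/80+ CD11b+ cells sorted from peritoneal lavage. Per the labels, adult C57BL/6J mice carried tumors from the mouse ovarian cancer line ID8 for 7 weeks and then received 2 i.p. doses, on day 1 and day 5. The 3 PBS samples came from mice given PBS and the 3 IRF5-NP samples from mice given nanoparticles with 30 µg of mIRF5 mRNA, which encodes the mouse transcription factor IRF5. The comparison asks how these genes differ in tumor macrophages after delivery of this mRNA. No sample with nanoparticles carrying a control mRNA was analysed here, so the mRNA and its carrier cannot be told apart. The labels name only mIRF5 mRNA, whereas the study describes particles that also carry mRNA for the kinase IKKβ, and whether these mice received both is not settled by the labels. The methods also give another dose and a shorter time of tumor growth for the ovarian model, made with ID8 cells that carry a plasmid for mouse VEGF, while the labels name only ID8.

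VEGF-A is the main secreted signal for growth of blood vessels, VEGF-C acts mostly on lymphatic vessels, and Flt1 encodes VEGF receptor 1, which is found on endothelial cells and on monocytes and macrophages. HIF-1α, encoded by Hif1a, is the oxygen-sensitive subunit of a transcription factor that turns on Vegfa and many metabolic genes in hypoxia, and it is controlled largely through the stability of the protein. Macrophages use arginine in competing ways, with arginase 1 (Arg1) making ornithine and urea and inducible nitric oxide synthase (Nos2) making nitric oxide. High Arg1 is commonly used as a mark of suppressive, M2-like macrophages and Nos2 of inflammatory, M1-like ones.

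The sequences around the annotated starts of Vegfa are shown because Vegfa was the member that passed the test and because the delivered mRNA encodes a factor that binds interferon response elements. RefSeq promoter windows on GRCm38.p6, from 250 bases before to 50 bases after a start, were found for 4 of the 6 members, and Vegfa had 2 windows on the minus strand of chromosome 17, at chr17:46032328-46032627 and at chr17:46025114-46025413, with starts 7214 bases apart. Capitals mark matches on either strand to ACGTG or GCGTG (hypoxia response element cores), GAAANNGAA (interferon response element), TTCNNNGAA (STAT sites) or TGANTCA (AP-1 sites), where N is any base.
Vegfa, upstream start: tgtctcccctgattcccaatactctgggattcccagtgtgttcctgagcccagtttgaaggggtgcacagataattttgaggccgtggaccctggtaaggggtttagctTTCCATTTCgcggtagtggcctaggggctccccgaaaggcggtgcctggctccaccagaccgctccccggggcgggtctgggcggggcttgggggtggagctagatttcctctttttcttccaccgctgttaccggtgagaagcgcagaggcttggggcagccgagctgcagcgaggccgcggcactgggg
Vegfa, downstream start: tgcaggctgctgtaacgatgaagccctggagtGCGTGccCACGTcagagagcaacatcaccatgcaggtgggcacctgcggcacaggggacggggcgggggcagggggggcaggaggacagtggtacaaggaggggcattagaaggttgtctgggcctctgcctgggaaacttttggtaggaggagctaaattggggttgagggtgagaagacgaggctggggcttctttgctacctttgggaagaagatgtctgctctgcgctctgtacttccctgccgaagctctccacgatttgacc
The upstream Vegfa window held 1 match to GAAANNGAA, on the opposite strand at position 110 of the window, and no match to either hypoxia core. The downstream window lies inside the Vegfa gene (chr17:46016993-46032377). It held 1 match to GCGTG at position 33 and 1 to ACGTG, on the opposite strand, at position 40. The Hif1a window, chr12:73907617-73907916 on the plus strand, held 3 matches to ACGTG, of which those at positions 116 and 117 overlap on opposite strands. The Flt1 window, chr5:147725962-147726261 on the minus strand, held 1 match to GCGTG, and the Vegfc window held none of these motifs. Among all 32851 windows, 8.56% held GAAANNGAA, 19.6% ACGTG, 32.4% GCGTG, 8.3% TTCNNNGAA and 7.81% TGANTCA, so matches to each motif were common. No binding was measured, and a match describes the letters of this window only.

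The sorted cells carried the macrophage genes they were sorted for. All 6 of 6 listed macrophage markers (Adgre1, Itgam, Csf1r, Cd68, Mertk, Fcgr1) were above background in all 6 samples, and their summed level was 59819 to 63549 normalized counts with PBS and 48305 to 100854 with IRF5-NPs. A sample's background was set from its own negative control probes, at 2 SD over their mean, and lay between 25.6 and 79.4 normalized counts. Depth ranged from 683472 to 1830318 counts per sample, lowest in IRF5-NP replicate 3, which also had the highest background. PBS replicates 2 and 3 differed by no more than sampling noise (chi-square test over genes, p = 0.0782, against chi-square per degree of freedom of 158 and 179 between either of them and PBS replicate 1). They were therefore counted as 1 sample, and n is 2 for PBS and 3 for IRF5-NP. Replicate 1 stood apart in both groups, with values of 97.7 and 54.0 when IRF5-NP replicate 1 was set against replicates 2 and 3, and 7.07 for the latter pair. The labels do not say that samples came from separate mice, so the p-values measure the spread between these samples, which may be technical.

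Vegfa was lower in every IRF5-NP sample than in every PBS sample, and it was the only member that passed the test. Its adjusted p of 0.0429 was close to the threshold. The call was lost in 10 of 20 alternatives, among them both other scalings. Nos2 and Hif1a were also lower in every IRF5-NP sample than in every PBS sample, but their differences did not pass, and the Hif1a groups overlapped under the other scalings. Arg1, Flt1 and Vegfc overlapped between the groups. Across the 6 members, 1 was called lower and 0 higher, while over all 754 genes 9.55% were called, 7.03% lower and 2.52% higher (limma, Benjamini-Hochberg adjusted p under 0.05). The median log2 fold change was -0.37 over the members and -0.03 over all genes. Differences are given as log2 fold changes of IRF5-NP over PBS on the scale of log2(normalized count + 1), which understates the change of low genes.

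**Figure D1:**
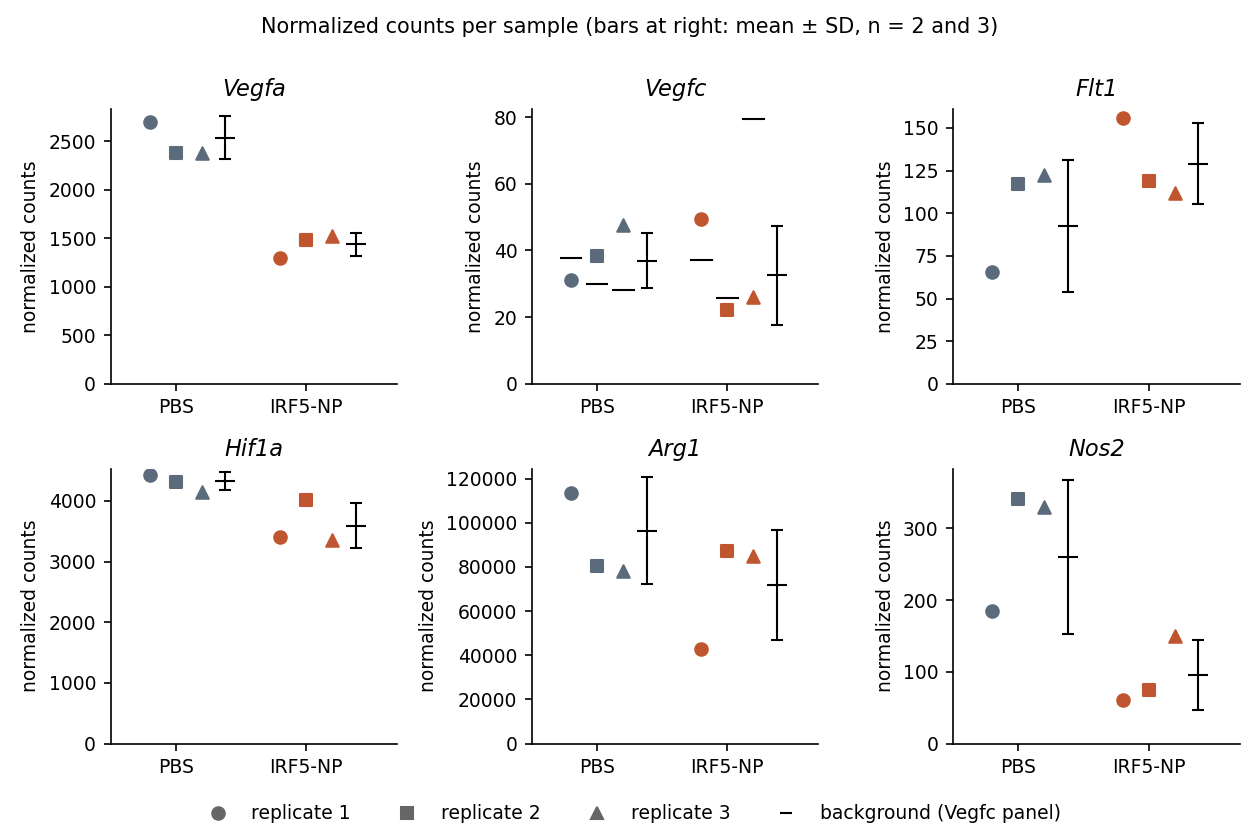
Normalized counts (linear axis from 0) of the 6 members in each PBS and IRF5-NP sample, with symbols for the replicate number and the mean ± SD at the right of each group (PBS replicates 2 and 3 counted as 1 sample, n = 2; IRF5-NP, n = 3). Vegfa sits between 2377 and 2698 with PBS and between 1301 and 1528 with IRF5-NPs, while Arg1 replicates 1 lie at opposite extremes; short lines in the Vegfc panel are each sample's background.

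The growth factor Vegfa (GRCm38 chr17:46016993-46032377) was read at 2698, 2385 and 2377 normalized counts in PBS replicates 1, 2 and 3 and at 1301, 1487 and 1528 in IRF5-NP replicates 1, 2 and 3. The groups did not overlap, and the highest IRF5-NP sample was far below the lowest PBS sample. The means were 2540 ± 224 (SD, n = 2) and 1439 ± 121 (SD, n = 3), a log2 fold change of -0.82 (SE 0.201, 95% confidence interval -1.29 to -0.35, limma adjusted p = 0.0429), or 1.77-fold lower. The difference was -1.05 between the samples numbered 1 and -0.66 between those numbered 2 and 3, so both sets of samples gave the same direction. The adjusted p was close to the threshold and the call depended on the processing: Vegfa passed in 10 of 20 alternatives and was lower in all 20. These passes include the fit of only the samples numbered 2 and 3 and the methods' t-test on 6 separate samples, chosen after seeing the data. They also include the limma fits of 6 separate samples, with and without a replicate block, which count PBS replicates 2 and 3 separately. Scaling each sample to a common median over all genes gave -0.58 (adjusted p = 0.107), quantile normalization gave -0.48 (adjusted p = 0.0928), and the adjusted p was 0.144 without PBS replicate 1 and 0.0580, 0.152 and 0.171 without IRF5-NP replicate 1, 2 or 3.

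In a bulk sample, fewer cells of a type and less RNA per cell cannot be told apart. The cells were sorted as F4/80+ CD11b+, and how fully this left out tumor cells was not measured here. None of the 8 listed tumor cell and mesothelial markers was analysed here, so whether any RNA of tumor cells, with or without the VEGF plasmid, remained in the Vegfa value was not tested. Some markers of cell types differed between the groups. Resident (large) peritoneal macrophage markers, 4 of 8 listed, summed to 4525 to 14280 with PBS and to 18311 to 31683 with IRF5-NPs, and Timd4 and Selp rose (adjusted p = 0.0155 and 0.0423). Among the macrophage markers Mertk fell (log2 fold change -1.23, adjusted p = 0.0218). Neutrophil markers, 9 of 11 listed, summed to 2252 to 6815 with PBS and to 1614 to 2556 with IRF5-NPs, which overlap, and 2 of the 9 (Mpo and Camp) were below background in all samples. S100a8 and S100a9 made up most of that sum in 4 samples, and the other markers did not move one way, since Mmp8 fell (adjusted p = 0.0158) and Csf3r rose (adjusted p = 0.0459). Dendritic cell markers, 4 of 6 listed, summed to 200 to 292 with PBS and to 99.9 to 130 with IRF5-NPs, with 1 of the 4 below background in all samples. Itgax, which macrophages also express, carried this difference, at 145 to 204 with PBS and 40.9 to 48.5 with IRF5-NPs (adjusted p = 0.00589), whereas the other 3 summed to 55.0 to 100.1 and 59.01 to 83.14. The lymphocyte marker Ms4a1, 1 of 9 listed, rose from 21.7 to 62.1 on average (adjusted p = 0.0351). Eosinophil and mast cell markers, 7 of 8 listed, summed to 157 to 168 with PBS and to 140 to 189 with IRF5-NPs, which overlap. Of these 7 only Cpa3 was called, from 11.1 to 41.1 (adjusted p = 0.0327). Kit, on the same list, was lower in every IRF5-NP sample (28.6 to 49.5) than in every PBS sample (53.8 to 71.4). Ms4a1 and Cpa3 were below background in every PBS sample and in IRF5-NP replicate 3. The part of these cells in the lower Vegfa was not tested.

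Vegfc, the lymphatic growth factor (GRCm38 chr8:54077532-54186454), was near background throughout. It was read at 31.1, 38.3 and 47.6 normalized counts with PBS and at 49.5, 22.1 and 26.0 with IRF5-NPs, and it was above background in 3 of 6 samples. The groups overlapped, and in IRF5-NP replicate 3 the value rested on 10 counts (exact Poisson 95% interval 12.5 to 47.8 normalized counts, which covers counting error only). The log2 fold change was -0.25 (SE 0.422, 95% confidence interval -1.23 to 0.73, adjusted p = 0.786), and the value ran from -1.29 to -0.0092 over the 20 alternatives. The interval covers changes of either sign.

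Flt1, which encodes VEGF receptor 1 (GRCm38 chr5:147561604-147726438), gave low counts that were above background in all 6 samples. It was read at 65.3, 116.9 and 122.7 normalized counts with PBS and at 156.1, 119.1 and 111.7 with IRF5-NPs. The groups overlapped, since PBS replicates 2 and 3 lay within the IRF5-NP range and PBS replicate 1 was the lowest sample. The means were 92.5 ± 38.5 (SD, n = 2) and 129 ± 23.8 (SD, n = 3), with a log2 fold change of 0.52 (SE 0.328, 95% confidence interval -0.24 to 1.28, adjusted p = 0.396). The difference was 1.24 between the samples numbered 1 and -0.05 between those numbered 2 and 3. With a common median every IRF5-NP sample was above every PBS sample, without passing the test. The endothelial markers Cdh5 and Tek, 2 of 9 listed, summed to 62.1 to 66.4 normalized counts with PBS and 60.0 to 85.8 with IRF5-NPs, and the part of endothelial RNA in the Flt1 level was not tested.

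Hif1a (GRCm38 chr12:73901324-73947554) gave high counts with a difference that rested on the scaling. It was read at 4428, 4305 and 4142 normalized counts with PBS and at 3404, 4018 and 3362 with IRF5-NPs. The groups did not overlap, although IRF5-NP replicate 2 came close to PBS replicate 3. The means were 4325 ± 145 (SD, n = 2) and 3595 ± 367 (SD, n = 3), with a log2 fold change of -0.27 (SE 0.215, 95% confidence interval -0.77 to 0.23, adjusted p = 0.515). It was -0.033 with a common median and -0.0053 with quantile normalization, and under both the groups overlapped. These are transcript levels, and the HIF-1α protein was not measured.

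The difference between Vegfa and Hif1a within a sample is not moved by a scaling factor per sample. The log2 level of Vegfa minus that of Hif1a was -0.71, -0.85 and -0.80 in PBS replicates 1, 2 and 3 and -1.39, -1.43 and -1.14 in IRF5-NP replicates 1, 2 and 3. Vegfa was thus lower relative to Hif1a in every IRF5-NP sample than in every PBS sample. This describes the 6 samples, was not tested, and does not say which of these genes moved.

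Arg1 (GRCm38 chr10:24915207-24927470) took the largest share of counts among the members, and the direction of its difference was not the same in all samples. It was read at 113508, 80326 and 78078 normalized counts with PBS and at 43008, 87273 and 84895 with IRF5-NPs. The groups overlapped: PBS replicate 1 was the highest sample, IRF5-NP replicate 1 the lowest, and the remaining 4 samples lay together. As a share of all counts, Arg1 ran from 5.98% in PBS replicate 1 (Wilson 95% interval 5.95% to 6.02%) to 3.49% in IRF5-NP replicate 1 (3.46% to 3.52%). The means were 96351 ± 24263 (SD, n = 2) and 71725 ± 24898 (SD, n = 3), with a log2 fold change of -0.47 (SE 0.485, 95% confidence interval -1.60 to 0.65, adjusted p = 0.635). The samples numbered 1 gave -1.40, whereas those numbered 2 and 3 gave 0.12.

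Nos2 (GRCm38 chr11:78920787-78960226) rested on few counts, and its log2 fold change was the widest among the members. It was read at 185, 341 and 331 normalized counts with PBS and at 60.9, 75.0 and 151 with IRF5-NPs. The groups did not overlap, but the nearest samples, PBS replicate 1 and IRF5-NP replicate 3, were close, with exact Poisson 95% intervals of 159 to 214 and 114 to 195 normalized counts. The means were 260 ± 107 (SD, n = 2) and 95.5 ± 48.3 (SD, n = 3), with a log2 fold change of -1.48 (SE 0.434, 95% confidence interval -2.49 to -0.48, adjusted p = 0.0696). This missed the threshold. With all 6 samples kept separate the adjusted p was 0.025 at a log2 fold change of -1.63, and Nos2 passed in 3 of 20 alternatives and was lower in all 20. Among these passes is the fit of only the samples numbered 2 and 3, chosen after seeing the data. The other passes, with 6 separate samples and with a replicate block, count PBS replicates 2 and 3 separately. Those replicates differed by no more than sampling noise. The samples numbered 1 gave -1.58 and those numbered 2 and 3 gave -1.65.

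The balance of the arginine users within a sample, as the log2 value of Nos2 minus that of Arg1, was -9.26, -7.87 and -7.88 in PBS replicates 1, 2 and 3 and -9.44, -10.2 and -9.13 in IRF5-NP replicates 1, 2 and 3. PBS replicate 1 lay inside the IRF5-NP range, so the groups overlapped. These values compare samples and not the abundance of the transcripts, because probes can differ in efficiency.

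Of the 6 members, 3 were lower in every IRF5-NP sample than in every PBS sample (Vegfa, Hif1a and Nos2) and 0 were higher in every one, which under either other scaling held for Vegfa and Nos2 and not for Hif1a. Over all genes, 20.4% were lower and 17.0% were higher in this sense. With 6 members these counts describe the genes and say nothing particular about the group.

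**Figure D2:**
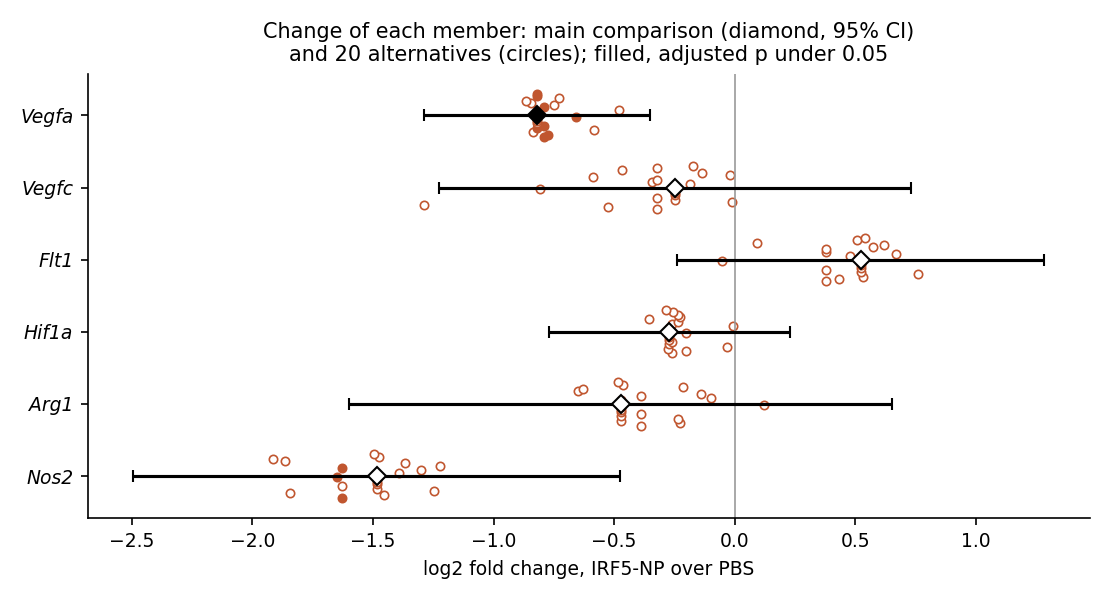
Log2 fold change of IRF5-NP over PBS (horizontal axis) of each member, with the value and 95% confidence interval of the comparison as reported (diamonds) and the values of 20 alternatives (circles), filled where the adjusted p was under 0.05. Vegfa stays between -0.87 and -0.48 and Nos2 between -1.92 and -1.22, while the Arg1 and Flt1 circles lie on both sides of 0.

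Genes that act with the members were taken from lists of 120 genes, of which 45 were in the table. Of these, 2 fell, 0 rose and 43 did not pass, beside 7.03% called lower and 2.52% called higher over all genes. Their median log2 fold change was -0.17 beside -0.03 for all genes. With a common median 2 fell and 2 were called higher, Fgfr1 (1.66, adjusted p = 0.0494) and Pdgfra (1.27, adjusted p = 0.0456). Pdgfra was near background throughout. It was below background in PBS replicate 1 (23.85 normalized counts) and in IRF5-NP replicate 3 (72.76), its highest reading. The genes that fell were Cxcr4, listed as a HIF target, and Tnf, listed upstream of Nos2.

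Among the 3 HIF target genes in the table, of 29 listed, Cxcr4 fell and Mif and Cxcl12 did not pass, with a median log2 fold change of -0.70. Cxcr4, the receptor for the chemokine CXCL12, was read at 1150, 734 and 736 normalized counts with PBS and at 273, 209 and 286 with IRF5-NPs, with no overlap and a log2 fold change of -1.85 (SE 0.267, adjusted p = 0.00567). Mif, a macrophage cytokine, had a log2 fold change of -0.70 (adjusted p = 0.160) and Cxcl12 one of 0.45 (adjusted p = 0.571). The glycolytic genes of the list were not analysed here, so these 3 genes cover a small part of the HIF response. After background subtraction Cxcr4 missed the threshold (adjusted p = 0.0605), and it also missed it in the methods' t-test with the same samples.

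None of the vascular growth factors and receptors passed, with 18 of 29 in the table and a median of -0.26. The receptor Fgfr1, for fibroblast growth factors, was read at 590, 1344 and 1297 normalized counts with PBS and at 1484, 3258 and 2752 with IRF5-NPs. It was higher in every IRF5-NP sample than in any PBS sample, although PBS replicate 2 and IRF5-NP replicate 1 lay close together (log2 fold change 1.42, SE 0.430, adjusted p = 0.0767). Ctgf, a matrix-associated growth regulator, gave -0.27 (adjusted p = 0.650), Pdgfb, a growth factor for pericytes, gave -0.43 (adjusted p = 0.420), and Igf1, an insulin-like growth factor, gave -0.39 (adjusted p = 0.674).

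The upstream genes of Nos2, 8 of 11 in the table, had a median log2 fold change of -0.26, and Tnf fell. Tnf, an inflammatory cytokine, was read at 330, 268 and 253 normalized counts with PBS and at 104, 52.9 and 65.0 with IRF5-NPs, with no overlap and a log2 fold change of -2.03 (SE 0.330, adjusted p = 0.00932). It was above background in 5 of 6 samples, and it missed the threshold without PBS replicate 1 (adjusted p = 0.0741), without IRF5-NP replicate 3 (0.0650) and after background subtraction (0.162). In the methods' t-test with Benjamini-Hochberg adjustment, Tnf also missed the threshold on the same samples (adjusted p = 0.192) and on 6 separate samples (0.0512). The interferon-γ receptor subunit Ifngr1 gave -0.42 (adjusted p = 0.515), Irf1, an interferon-induced factor, gave 0.40 (adjusted p = 0.531), the endotoxin receptor Tlr4 gave -0.06 (adjusted p = 0.924) and Irf8, a factor of myeloid development, gave -0.41 (adjusted p = 0.313).

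The upstream genes of Arg1, 10 of 13 in the table, had a median of -0.08 and none passed. Il4ra, the receptor chain for IL-4 and IL-13, was read at 4378, 2700 and 2636 normalized counts with PBS and at 1892, 1660 and 1476 with IRF5-NPs. All IRF5-NP samples were below all PBS samples, and the log2 fold change of -1.03 narrowly missed the threshold (SE 0.267, adjusted p = 0.0503). Cebpb, a transcription factor that drives Arg1, gave 0.11 (adjusted p = 0.870), Klf4 gave -0.89 (adjusted p = 0.245) and Stat6, which relays IL-4 signals, gave -0.05 (adjusted p = 0.917).

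The arginine, nitric oxide and polyamine list had 1 of 22 genes in the table, Gch1, which makes the cofactor of nitric oxide synthases. Gch1 was read at 52.9, 97.2 and 95.1 normalized counts with PBS and at 99.95, 110.2 and 127.3 with IRF5-NPs, and its log2 fold change of 0.64 did not pass (SE 0.320, adjusted p = 0.267). Of the thrombospondin receptors, 5 of 7 were in the table, with a median of 0.08, and none passed. The integrin Itgb1 gave 0.73 (adjusted p = 0.216), Sirpa, the receptor for CD47, gave -0.18 (adjusted p = 0.750), Cd47 gave -0.30 (adjusted p = 0.460) and the scavenger receptor Cd36 gave 0.14 (adjusted p = 0.880). None of the 9 HIF regulators listed was analysed here.

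**Figure D3:**
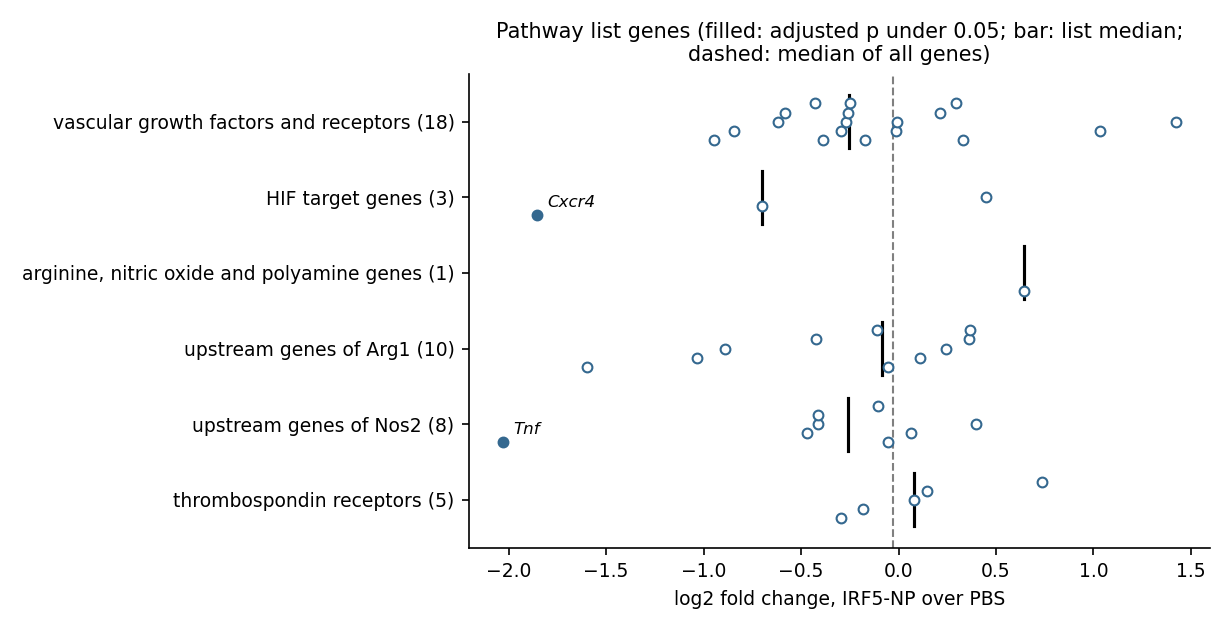
Log2 fold change of IRF5-NP over PBS for the 45 pathway genes in the table, by list, with the number of genes in parentheses, the list median as a bar and the median of all genes, -0.03, as a dashed line. Filled points passed the test, namely Cxcr4 and Tnf, both below 0.

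The genes whose profile was closest to that of Vegfa were found from log2 values centred on each gene's own mean, as the root mean square difference over the 6 samples, among 477 genes above background in all samples. The closest were Rab20 (0.0485), Cstb (0.0756), Icosl (0.0792), Vav1 (0.0965) and Furin (0.111), whereas the median over the candidates was 0.477. Rab20, a small GTPase of endosomes, was read at 1241, 1077 and 1016 normalized counts with PBS and at 558, 692 and 699 with IRF5-NPs. Like Vegfa, it was highest in PBS replicate 1 and lowest in IRF5-NP replicate 1. Of these 5 genes Furin, a proprotein convertase, fell (log2 fold change -0.92, adjusted p = 0.0327), and the other 4 had log2 fold changes between -0.88 and -0.73 that did not pass. Rab20, Icosl and Vav1 missed the threshold narrowly (limma adjusted p = 0.0503, 0.0503 and 0.0506). Changes near that of Vegfa follow from choosing these genes by likeness over the same samples. Furin missed the threshold under either other scaling (-0.69 and -0.55, adjusted p = 0.0735 and 0.101), without the mean-variance trend (0.0770) and in the methods' t-test on the same samples (0.133). It also missed it without PBS replicate 1 (0.0903) or IRF5-NP replicate 2 (0.122) or 3 (0.140), with log2 fold changes of -0.95, -0.96 and -0.98. Among the members, Hif1a was closest to Vegfa (0.283), followed by Arg1 (0.351), Vegfc (0.527), Nos2 (0.641) and Flt1 (0.715). The 6 samples share their scaling and their groups, so likeness over them is a description.

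**Figure D4:**
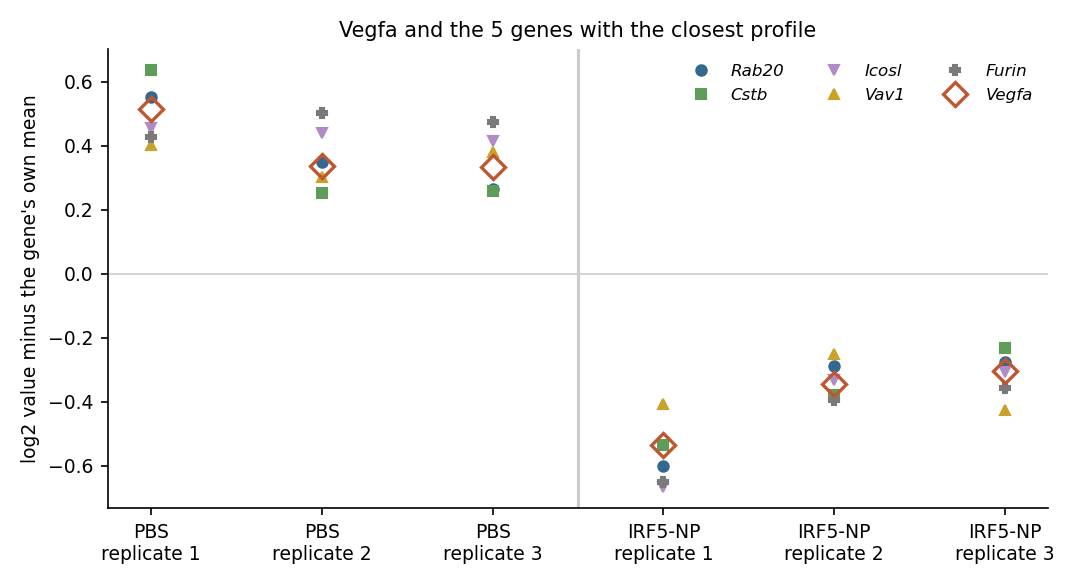
Log2 values minus each gene's own mean (vertical axis) of Vegfa and the 5 genes with the closest profile in the 6 samples (horizontal axis). All 6 genes lie above their mean in the 3 PBS samples and below it in the 3 IRF5-NP samples, and IRF5-NP replicate 1 is the lowest sample for Vegfa, Rab20, Cstb, Icosl and Furin.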

How the data were processed

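The deposited values were normalized counts of the nCounter assay on a linear scale, a signal that the authors scaled within each sample. For cultured macrophages of the same study, the methods name NanoStringQCPro and normalization to housekeeping genes in nSolver, and the same steps are not stated for the sorted cells. Within a sample, all gene values were whole multiples of a single factor (tolerance 0.01 normalized counts), and division by this factor, between 0.952 and 2.60, gave the counts used for depth, counting intervals and the chi-square comparison of replicates. Intervals cover counting error only.

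Groups came from the labels. Expression was tested with limma 3.58.1 in R 4.3.3 (lmFit, eBayes with trend) on log2(value + 1), that is with a pseudocount of 1, as a two-sided test adjusted by Benjamini-Hochberg over all 754 genes with a threshold of 0.05 and no filter. PBS replicates 2 and 3 were averaged on the log2 scale as 1 sample. Scripts were tested on simulated data. Alternatives changed the counting of replicates, the replicate block, pseudocount, filter, variance prior, scaling, sample weights, background, test and samples. Named genes were all members, all list genes past the threshold, up to 4 others per list with the highest mean log2 value, and the 5 genes closest to Vegfa. Some genes of the lists are not reported here. Members and lists were chosen with earlier results of these data known. Symbols were matched to RefSeq on GRCm38 (744 by symbol, 9 by synonym, 1 unmatched). Python 3.11.15, numpy 2.4.6, scipy 1.17.1, pandas 2.3.3 and matplotlib 3.10.9 were used.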

Additional observations from a re-analysis of the deposited data

How the results depend on the processing

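Vegfa was lower with IRF5-NPs in all 20 alternatives and missed the threshold in 10. Its log2 fold change was -0.82 without the mean-variance trend and in the methods' t-test on the same samples with either adjustment, -0.58 with a common median, -0.48 with quantile normalization and -0.84 after background subtraction, and between -0.87 and -0.73 when 1 sample was left out, where the call was lost without PBS replicate 1 or any 1 of the IRF5-NP replicates. The cause was not tested. The members past the threshold were 2 with 6 separate samples, 2 with a replicate block and 0 without the trend, with either scaling, after background subtraction and in those t-tests, and 0 to 1 when 1 sample was left out. Of the pathway list genes, 2 passed, against 5 with the replicate block, 4 (2 lower and 2 higher) with a common median, 6 with array weights, 0 after background subtraction and in those t-tests, and 1 to 4 when 1 sample was left out, with 1 without PBS replicate 1 or IRF5-NP replicate 3 and 4 without PBS replicate 2. Over all genes, 72 passed, against 121 with 6 separate samples, 135 with the replicate block, 125 with array weights, 41 without the trend, 24 after background subtraction, 0 in those t-tests and 21 to 83 when 1 sample was left out, with 35 without PBS replicate 1 and 41 and 21 without IRF5-NP replicates 2 and 3. The call split was 19 higher and 53 lower, but 42 and 36 with a common median and 35 and 40 with quantile normalization, which moved the median log2 change of all genes from -0.03 to 0.21 and 0.11.

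Same-numbered samples deviated together with correlations of 0.158, 0.178 and 0.0953 over 482 genes, and 5 of 6 samples correlated best with their own number. These values cannot decide whether the numbers are pairs, because PBS replicates 2 and 3 differed by no more than sampling noise. The numbers were not taken as pairs, and the replicate block stayed an alternative. Chosen after seeing the data, a fit of only the samples numbered 2 and 3 passed 2 members, 15 list genes and 262 of all genes on 1 residual degree of freedom, and it turned Arg1 to 0.12 and Flt1 to -0.054. Also chosen then, the methods' t-test on 6 separate samples passed 1 member, Vegfa, 1 list gene and 43 of all genes. No other member value changed sign in any alternative. A count test on recovered counts was not run. Where 1 PBS sample was left, it was assumed to vary like the other group. Vegfc, Flt1 and Nos2 had the lowest counts and so the widest counting intervals.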
